A study of Homo sapiens with 8 samples.

Results

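The genes described here are 10 enzymes with which prostate tumour cells make, interconvert or release androgens: AKR1C1, AKR1C2, AKR1C3, SRD5A1, SRD5A3, HSD3B1, HSD17B6, HSD17B10, HSD17B11 and STS. They were chosen by name, and all 10 were matched by Ensembl identifier among the 57905 genes of the table. The table covers RNA-seq of 2 human prostate cancer lines in 8 libraries. EnzaR cells are resistant to enzalutamide, a drug that blocks the androgen receptor, and grew with 10 uM of it. They carried for 48 h either an siRNA against YAP1, a Hippo pathway co-activator, or a control siRNA (siNC), each at 40 nM, with 2 libraries per group. LNCaP cells are androgen-sensitive and were labelled enzalutamide-sensitive. For 48 h they received extracellular vesicles (EVs) from EnzaR cells in which YAP1 (EV-siYAP1) or the nuclear receptor COUP-TFII (EV-siCII) had been depleted, vesicles from siNC-treated EnzaR cells (EV-siNC), or a vehicle control without vesicles, with 1 library per group. Both lines were kept in RPMI1640 medium with 10% FBS, and the labels do not say whether EnzaR is a clone or a pool, nor that each replicate came from a culture of its own. All p-values therefore rest on library-to-library spread, which within a group could be purely technical. Where the lines are compared, the 4 libraries of a line are pooled over their treatments, which also enter the spread and the SD.

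Androgens reach a prostate tumour as testosterone from the blood and as weak adrenal precursors, which the tumour's own enzymes turn into testosterone and dihydrotestosterone, the strongest natural ligand of the androgen receptor. STS frees the adrenal precursor DHEA from its sulfate, HSD3B1 turns DHEA into androstenedione, AKR1C3 reduces androstenedione to testosterone, and the steroid reductase SRD5A1 makes the dihydro forms. AKR1C2 reduces dihydrotestosterone to a weak diol, and HSD17B6 can oxidise that diol back. Intratumoral synthesis of this kind is studied as a route by which prostate cancer grows when androgen supply or the receptor is blocked.

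Total counts were 16682669 to 18248939 per library, so that 3 counts, taken as the detection floor, corresponded to 0.158 to 0.202 CPM (counts scaled to library size by the TMM method over all 8 libraries). YAP1 was at 6.12 and 7.44 CPM in the siYAP1 libraries and at 59.5 and 49.2 CPM in the siNC libraries, as the labels say. Luminal prostate markers were present in both lines (8 genes, summed level 3970 to 4400 CPM in EnzaR and 3060 to 3420 CPM in LNCaP libraries). The 3 basal markers, among them KRT5 and TP63, and the 3 leukocyte markers had at most 10 counts in every library. Stromal markers summed to 19.6 to 25.1 CPM in EnzaR and 368 to 376 CPM in LNCaP libraries, with VIM and COL1A1 the 2 of 4 genes above 10 counts. Neuroendocrine markers summed to 29.5 to 37.6 CPM in EnzaR and 123 to 187 CPM in LNCaP libraries, nearly all of it ENO2 and SYP, while CHGA and INSM1 had at most 10 counts. The part of these markers in the differences described here was not tested.

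The 3 AKR1C genes lie side by side on chromosome 10 and are similar in sequence, which bears on the values given for them. AKR1C1 and AKR1C2 are near-identical, and AKR1C3 is less close to them. In GENCODE release 29 their coding sequences are each 972 bases long. Those of AKR1C1 and AKR1C2 differ at 19 positions (98.05% identity), and that of AKR1C3 differs from AKR1C1 at 83 and from AKR1C2 at 87 positions. Of all 50-base windows of the AKR1C2 coding sequence, 51.8% occurred letter for letter in an AKR1C1 transcript, against 19.1% of 100-base and 4.98% of 150-base windows. Neither read length nor the handling of reads with several matches is stated in the labels, so the split of counts between AKR1C1 and AKR1C2 is uncertain. The 60-base stretch of the coding sequence where AKR1C1 and AKR1C2 differ most (bases 103 to 162 from the start codon, 10 differences) shows the letters on which a read can be assigned, with capitals at positions where the 3 genes are not all the same.
AKR1C2: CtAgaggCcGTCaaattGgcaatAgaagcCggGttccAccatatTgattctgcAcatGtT
AKR1C1: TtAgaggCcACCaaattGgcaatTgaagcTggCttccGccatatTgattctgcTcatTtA
AKR1C3: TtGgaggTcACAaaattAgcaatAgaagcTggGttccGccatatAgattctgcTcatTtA

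The likeness extends to the sequence before the transcription start. RefSeq's table (GRCh38.p14) held this sequence for 9 of the 10 genes, all but HSD17B6. The 250 bases before the start of AKR1C1 and AKR1C2 were 96.46% identical over 254 alignment columns, and those of AKR1C3 were 71.43% and 69.58% identical to them. These 3 are shown because the 3 genes had the largest differences between the lines. Capitals mark the match to TATAAA, on the minus strand 26 to 21 bases before the start of AKR1C3.
AKR1C2 (chr10:5003858-5004107, minus strand): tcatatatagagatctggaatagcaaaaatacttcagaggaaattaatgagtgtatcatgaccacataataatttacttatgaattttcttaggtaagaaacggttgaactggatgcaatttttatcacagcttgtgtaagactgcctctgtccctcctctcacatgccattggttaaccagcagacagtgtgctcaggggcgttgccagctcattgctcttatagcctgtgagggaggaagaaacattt
AKR1C1 (chr10:4963165-4963414, plus strand): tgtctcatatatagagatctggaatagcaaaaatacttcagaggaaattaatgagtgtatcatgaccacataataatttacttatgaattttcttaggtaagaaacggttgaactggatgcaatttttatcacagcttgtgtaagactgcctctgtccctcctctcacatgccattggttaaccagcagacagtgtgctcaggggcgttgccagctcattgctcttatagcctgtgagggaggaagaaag
AKR1C3 (chr10:5048531-5048780, plus strand): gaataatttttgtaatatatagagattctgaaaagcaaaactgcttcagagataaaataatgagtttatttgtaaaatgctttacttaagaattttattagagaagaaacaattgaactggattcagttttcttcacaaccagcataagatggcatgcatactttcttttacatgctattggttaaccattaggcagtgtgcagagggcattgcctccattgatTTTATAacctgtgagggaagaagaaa
Both strands were searched for 4 motifs, which did not overlap where found: TGACNNNGC, the core of the antioxidant response element, AGAACA, a hexamer of the androgen receptor's binding site, GGAATG, bound by the TEAD partners of YAP1, and TATAAA. They occur in 10.9%, 12.4%, 11.9% and 10.7% of the 35116 windows of this length in the table. TATAAA was the sole match in the AKR1C windows. Among the other 6 genes with a window, TGACNNNGC was found in that of SRD5A3 and AGAACA in that of STS.

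The level of each enzyme was compared between genes as deposited FPKM, which divides by exonic length, and HSD17B10 led in every library. HSD17B10 is a mitochondrial dehydrogenase of isoleucine breakdown that also oxidises androgen diols, and it averaged 248 ± 34.6 FPKM in EnzaR and 129 ± 9.1 FPKM in LNCaP libraries (SD, n = 4 each). In EnzaR cells SRD5A3 (11.2 ± 0.744), AKR1C2 (10.9 ± 1.09) and SRD5A1 (10.6 ± 0.682 FPKM) came next and did not differ beyond their spread. AKR1C3 (2.34 ± 0.177), HSD17B11 (2.03 ± 0.477) and AKR1C1 (1.9 ± 0.049 FPKM) formed a lower set, in which HSD17B11 overlapped both others and AKR1C3 lay above AKR1C1 in every library. That order of AKR1C3 and AKR1C1 rests on the exonic lengths used and reversed per coding length.

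HSD17B6 (0.962 ± 0.36) and STS (0.855 ± 0.144 FPKM) followed in EnzaR cells. In LNCaP cells SRD5A1 followed HSD17B10 (15.1 ± 0.693 FPKM), and then SRD5A3 (8.95 ± 1.02 FPKM), with no overlap between the 2 genes. HSD17B11 (1.64 ± 0.237) and HSD17B6 (0.575 ± 0.0835 FPKM) followed. AKR1C2 and AKR1C3 (0.398 FPKM each) stood there level with STS (0.4), and AKR1C1 was at 0.188 ± 0.031 FPKM. HSD3B1 was last in both lines, at 0.128 ± 0.066 FPKM in EnzaR and 0.035 ± 0.0436 FPKM in LNCaP libraries. The exonic length used for AKR1C1 is 9423 bases beside a coding length of 972, so FPKM understates it beside genes with short annotations. Per kilobase of coding length, a scale chosen after seeing the data, AKR1C2 took position 2 in EnzaR and 5 in LNCaP cells. On that scale AKR1C1 was above AKR1C3 in EnzaR cells, at 19.3 against 11.4 CPM per kilobase. In LNCaP cells they were near level, at 1.74 and 1.77 CPM per kilobase.

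**Figure D1:**
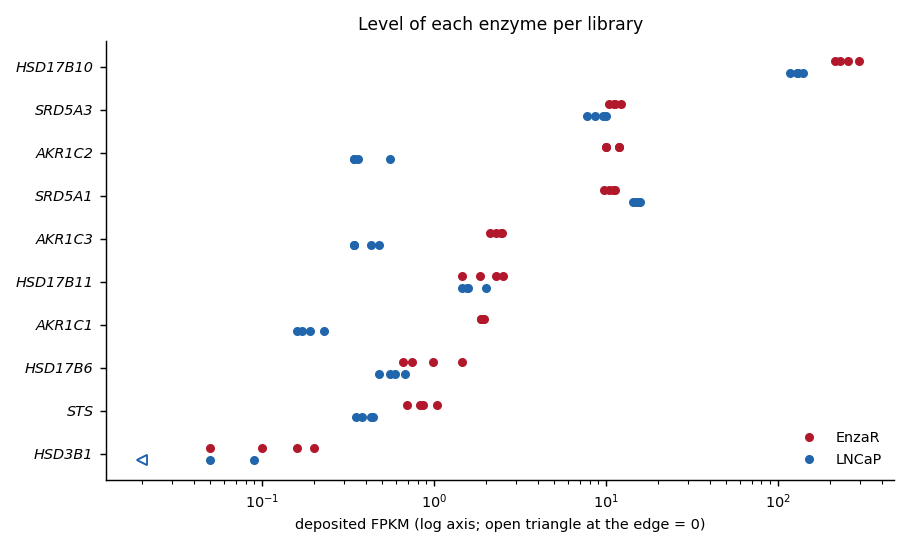
Deposited FPKM of each enzyme, 1 point per library on a log axis, with the 4 EnzaR libraries in red above the 4 LNCaP libraries in blue; the open triangle stands for 2 LNCaP libraries listed at 0. HSD17B10 is highest in every library, and AKR1C2 lies at 9.96 to 11.9 FPKM in EnzaR and 0.34 to 0.55 FPKM in LNCaP libraries.

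The comparison of EnzaR with LNCaP cells gave higher levels of the AKR1C genes, HSD17B10, STS, SRD5A3 and HSD17B6 in EnzaR cells and a lower level of SRD5A1. The calls of SRD5A3 and HSD17B6 were lost once GC content and gene length were corrected for. The largest difference was in AKR1C2, at 29.6-fold. Of the 9 enzymes with enough counts to test, 7 were higher and 1 lower at an adjusted p under 0.05 (edgeR quasi-likelihood test, Benjamini-Hochberg). These lines differed in most genes: 72.6% of the 15640 genes tested were called, 36.2% higher and 36.4% lower, so the number of calls among the enzymes says little by itself. The median log2 fold change was 1.05 over the 9 enzymes and -0.00785 over all genes tested. Line, drug in the medium and siRNA transfection cannot be told apart here, and neither can fewer expressing cells and less RNA per cell.

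AKR1C2 (ENSG00000151632, chromosome 10, 5029967 to 5060223, minus strand, hg19), the main reductase of dihydrotestosterone to its weak diol, was at 80.9 and 77.6 CPM in siYAP1 and 59.8 and 61.7 CPM in siNC libraries of EnzaR cells, against 3.17 in EV-siYAP1, 1.95 in EV-siCII, 2.05 in EV-siNC and 2.07 CPM in control libraries of LNCaP cells. No library of one line came near the other. The means were 70.0 ± 10.8 CPM in EnzaR and 2.31 ± 0.578 CPM in LNCaP cells (SD, n = 4 each), a log2 fold change of 4.89 (SE 0.161, edgeR adjusted p = 1.27e-13), which was the 69th largest of the genes tested. AKR1C1 (ENSG00000187134, 4934796 to 5025475, plus strand), which reduces progesterone as well as dihydrotestosterone, was at 20.7 and 18.7 CPM in siYAP1 and 17.3 and 18.3 CPM in siNC libraries, against 1.72 in EV-siYAP1, 1.46 in EV-siCII, 1.47 in EV-siNC and 2.13 CPM in the control. Its log2 fold change was 3.44 (SE 0.165, edgeR adjusted p = 1.12e-11). Its groups were likewise far apart.

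AKR1C3 (ENSG00000196139, 5077546 to 5149878, plus strand), which makes testosterone from androstenedione, was at 10.69 and 11.16 CPM in siYAP1 and 11.15 and 11.25 CPM in siNC libraries, against 2.04 in EV-siYAP1, 1.84 in EV-siCII, 1.47 in EV-siNC and 1.51 CPM in the control. All 4 EnzaR libraries lay within a narrow band, and the log2 fold change was 2.66 (SE 0.168, edgeR adjusted p = 3.35e-10). The counts of the 3 genes added together had a log2 fold change of 4.09 (SE 0.124, edgeR adjusted p = 5.15e-14), a sum chosen after seeing the data. Misassignment among the 3 genes cannot alter this sum, but reads left out for matching several genes could. AKR1C2 took 69.9 ± 2.56% of that sum in EnzaR and 40.0 ± 4.33% in LNCaP libraries (SD, n = 4 each). The shares did not overlap, a comparison made after the values were seen and one that rests on the uncertain split of counts between AKR1C1 and AKR1C2. In single LNCaP libraries the share rested on 95 to 129 counts, with exact binomial 95% limits of 27.0% to 46.4% in the control and 36.9% to 54.7% in EV-siYAP1, which cover counting error only.

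**Figure D2:**
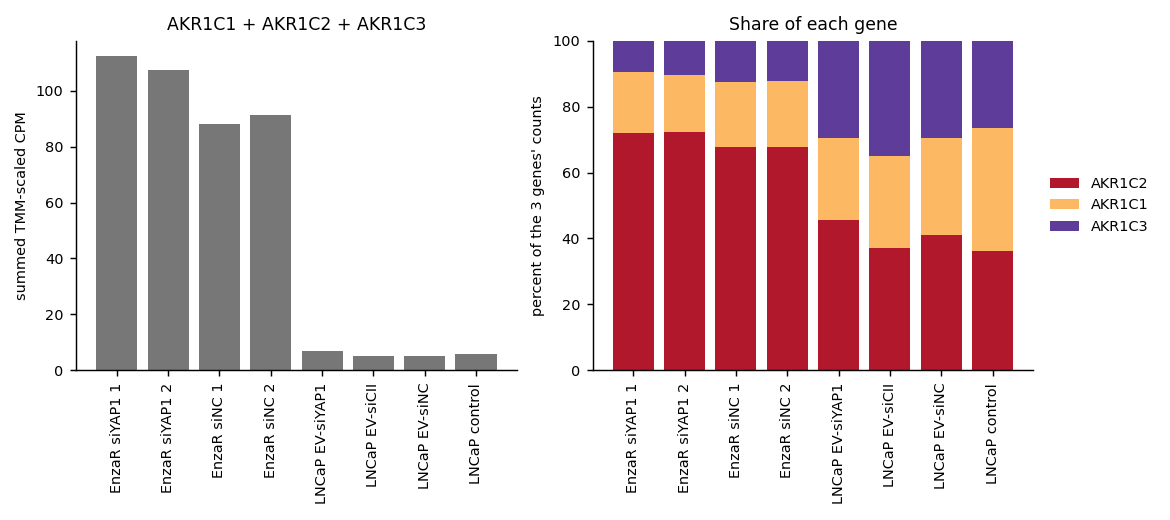
Left, TMM-scaled CPM of AKR1C1, AKR1C2 and AKR1C3 added together in each library; right, the percent of those counts assigned to each gene. The sum is 88.2 to 112 CPM in EnzaR and 4.99 to 6.94 CPM in LNCaP libraries, and AKR1C2 holds the largest share in all libraries but the LNCaP control, where AKR1C1 had 38 counts and AKR1C2 37.

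The other reductases differed less. SRD5A1 (ENSG00000145545, chromosome 5, 6633456 to 6669675, plus strand), the type of steroid 5-alpha reductase common in prostate cancer lines, was at 33.7 and 33.9 CPM in siYAP1 and 32.0 and 28.3 CPM in siNC libraries, against 43.2 in EV-siYAP1, 41.2 in EV-siCII, 42.3 in EV-siNC and 40.7 CPM in the control. Every EnzaR library was below every LNCaP library, and the log2 fold change was -0.42 (SE 0.0918, edgeR adjusted p = 0.000603). SRD5A3 (ENSG00000128039, chromosome 4, 56212276 to 56239263, plus strand), a polyprenol reductase that cells need for protein glycosylation and that shares the reductase fold, was at 60.4 and 52.2 CPM in siYAP1 and 49.0 and 46.4 CPM in siNC libraries, against 32.1 in EV-siYAP1, 36.0 in EV-siCII, 40.1 in EV-siNC and 43.3 CPM in the control. It overlaps 2 genes on the other strand, SRD5A3-AS1 and FCF1P8, with at most 142 counts each over all libraries. The groups came close without overlapping (log2 fold change 0.43, SE 0.11, edgeR adjusted p = 0.0022). The call ended once GC content and gene length were corrected for (0.013, edgeR adjusted p = 0.929). With siNC set against the LNCaP control alone the log2 fold change was 0.11 (edgeR adjusted p = 0.513), a value that rests on 1 LNCaP library, assumed to vary like the EnzaR libraries.

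Of the dehydrogenases, HSD17B10 (ENSG00000072506, chromosome X, 53458206 to 53461320, minus strand) was at 367 and 302 CPM in siYAP1 and 235.5 and 259.2 CPM in siNC libraries, against 123 in EV-siYAP1, 136 in EV-siCII, 138 in EV-siNC and 153 CPM in the control. The lines were well apart, with a log2 fold change of 1.05 (SE 0.117, edgeR adjusted p = 4.09e-07). HSD17B6 (ENSG00000025423, chromosome 12, 57145945 to 57181574, plus strand), the diol oxidase of the backdoor route, was at 1.882 and 1.595 CPM in siYAP1 and 3.28 and 2.27 CPM in siNC libraries, against 1.02 in EV-siYAP1, 1.46 in EV-siCII, 1.26 in EV-siNC and 1.23 CPM in the control. It rested on 19 to 60 counts per library and overlaps PRIM1 on the other strand, whose reads cannot be told apart from its own without strand (log2 fold change 0.84, SE 0.272, edgeR adjusted p = 0.0107). The call was lost without EnzaR_siNC replicate 1 (0.59, edgeR adjusted p = 0.0694) and after the GC and length correction (0.31, edgeR adjusted p = 0.306).

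HSD17B11 (ENSG00000198189, chromosome 4, 88257762 to 88312538, minus strand), a lipid droplet enzyme that oxidises the diol at the 17 position, was at 5.04 and 3.78 CPM in siYAP1 and 6.07 and 5.65 CPM in siNC libraries, against 4.57 in EV-siYAP1, 3.36 in EV-siCII, 3.63 in EV-siNC and 3.75 CPM in the control. A siYAP1 library, replicate 2, lay within the LNCaP range, and it was not called (log2 fold change 0.40, SE 0.189, edgeR adjusted p = 0.0665). It was called higher with siNC set against the 4 LNCaP libraries (0.595, edgeR adjusted p = 0.0126), without EnzaR_siYAP1 replicate 2 (0.54, edgeR adjusted p = 0.0159) and without LNCaP_EV_siYAP1 replicate 1 (0.47, edgeR adjusted p = 0.0498), while with GC and length corrected it was called lower (-0.64, edgeR adjusted p = 0.00218), so that no direction can be given.

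At the entry of the pathway, STS (ENSG00000101846, chromosome X, 7137497 to 7272851, plus strand) was at 5.04 and 6.03 CPM in siYAP1 and 5.36 and 6.87 CPM in siNC libraries, against 2.15 in EV-siYAP1, 2.38 in EV-siCII, 2.68 in EV-siNC and 2.80 CPM in the control. All EnzaR libraries were above all LNCaP libraries (log2 fold change 1.19, SE 0.18, edgeR adjusted p = 1.44e-05). HSD3B1 (ENSG00000203857, chromosome 1, 120049821 to 120057681, plus strand) had 4 and 2 counts in siYAP1, 7 and 9 in siNC, 4 in EV-siNC and 2 in control libraries. It had 0 counts in EV-siYAP1 and EV-siCII, which allows up to 0.161 and 0.162 CPM. HSD3B1 was thus at or near the floor everywhere and had too few counts to be tested. Without the filter on low counts it had a log2 fold change of 1.89 between the lines (SE 0.815, edgeR adjusted p = 0.0469) and of -1.21 in the knockdown (SE 0.913, edgeR adjusted p = 0.569).

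**Figure D3:**
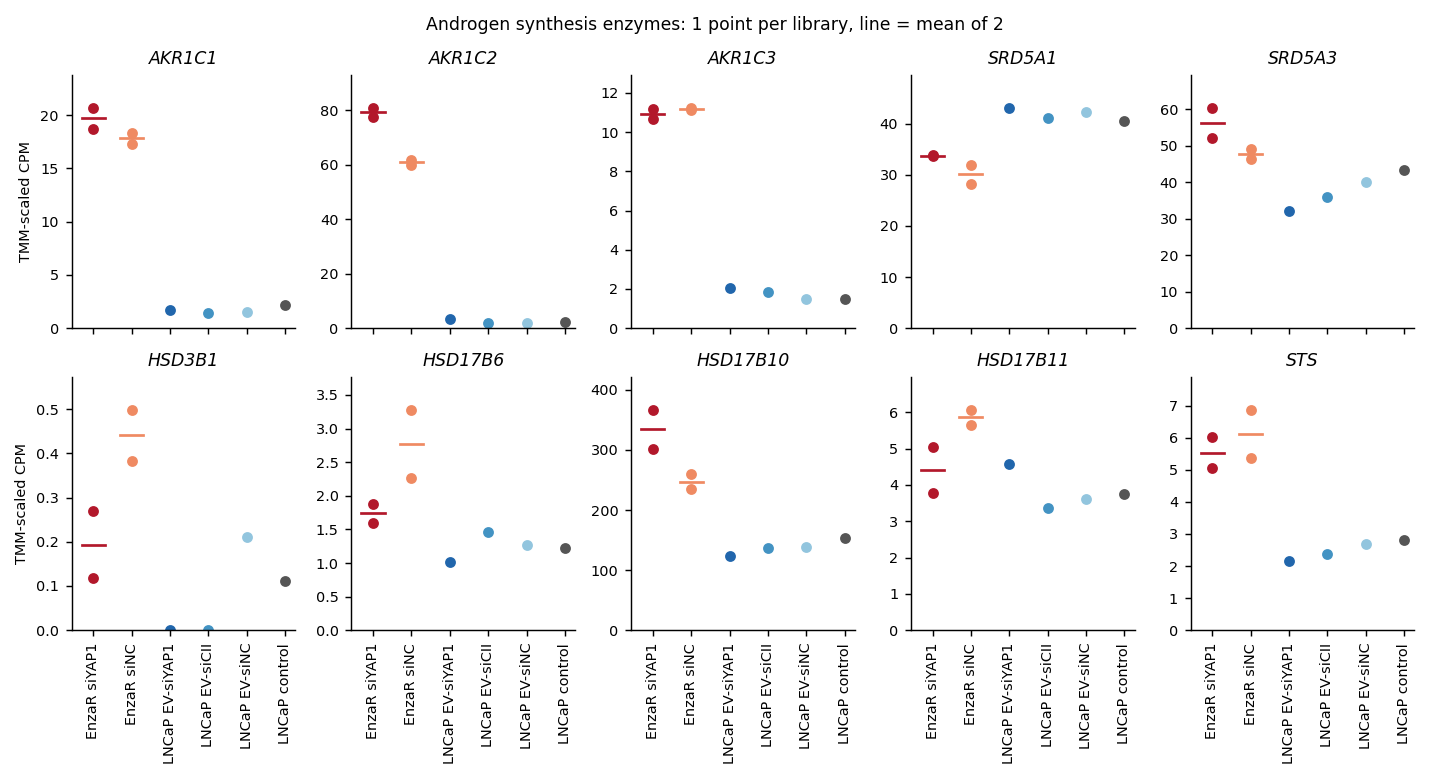
TMM-scaled CPM of the 10 enzymes, 1 point per library and a line at the mean of 2 replicates, with the EnzaR groups left of the LNCaP groups and a linear axis from 0 in each panel. AKR1C1, AKR1C2 and AKR1C3 are high in all 4 EnzaR libraries and at most 3.17 CPM in LNCaP libraries, while SRD5A1 is lower in EnzaR libraries.

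Other steps of steroid metabolism were read from 4 lists of 50 further genes (early steroidogenesis, other ketosteroid reductases and dehydrogenases, sulfate handling and import, hydroxylases and aromatase), of which 48 were matched in the table. Of these, 24 had at most 10 counts in every library. They included CYP17A1 (at most 3 counts in EnzaR and 5 in LNCaP libraries), which makes DHEA, STAR (3 and 5), which carries cholesterol into mitochondria, HSD3B2 (0 and 1), HSD17B3 (1 and 1), the testicular testosterone enzyme, and AKR1C4 (1 and 0). CYP11A1, the first enzyme acting on cholesterol, had at most 7 counts in EnzaR and 22 in LNCaP libraries. Of the 22 genes tested, 4 were higher and 13 lower in EnzaR cells, beside the 36.2% and 36.4% of all genes.

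On these lists 2 genes were named for a difference of at least 2-fold by the naming rule, and both were lower in EnzaR cells. CYP39A1 (log2 fold change -1.52, edgeR adjusted p = 4.39e-05) and RDH16 (-1.01, edgeR adjusted p = 0.00309) were also lower by at least 2-fold. So was SUMF1, described below. These genes fell past the limit on names, which larger differences over all lists had filled. HSD17B14, which oxidises the 17-hydroxyl group, averaged 2.28 ± 0.471 CPM in EnzaR and 16.9 ± 2.05 CPM in LNCaP cells (SD, n = 4 each, log2 fold change -2.92, edgeR adjusted p = 1.29e-10). CYP3A5, a steroid hydroxylase, averaged 0.329 ± 0.233 CPM in EnzaR and 3.04 ± 0.738 CPM in LNCaP cells (SD, n = 4 each, log2 fold change -3.23, edgeR adjusted p = 5.6e-07). It had only 2 to 11 counts in EnzaR libraries, near the floor, and 42 to 73 in LNCaP libraries. CYP3A5 thus passed the filter on low counts through the LNCaP libraries, and the size of its difference is imprecise. SUMF1, which activates sulfatases including STS, differed in the other direction from STS and averaged 31.3 ± 8.39 CPM in EnzaR and 70.4 ± 3.58 CPM in LNCaP cells (log2 fold change -1.19, edgeR adjusted p = 1.43e-06). SUMF1 was past the limit on names for this comparison, though not below 2-fold, and is given because it was named in the knockdown.

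AKR1C genes are textbook targets of the oxidative stress factor NRF2, and of 12 other NRF2 target genes 8 were tested, 7 higher and 1 lower in EnzaR cells, with a median log2 fold change of 1.28, beside 36.2% higher and 36.4% lower and a median of -0.00785 over all genes. NQO1, a quinone reductase, averaged 591 ± 44.5 CPM in EnzaR and 49.4 ± 9.77 CPM in LNCaP cells (SD, n = 4 each, log2 fold change 3.55, edgeR adjusted p = 3.34e-13). GCLM, a subunit of the enzyme that starts glutathione synthesis, had a log2 fold change of 2.09 (edgeR adjusted p = 4.64e-10). Of the 4 genes not tested, AKR1B10 averaged 0.296 ± 0.257 CPM in EnzaR and 0.106 ± 0.0963 CPM in LNCaP cells (SD, n = 4 each). The lower gene was HMOX1, heme oxygenase, named after its values were seen (log2 fold change -0.365, edgeR adjusted p = 0.0134). Its groups overlapped, and the call ended without EnzaR_siYAP1 replicate 2 (-0.31, edgeR adjusted p = 0.0517) and with GC and length corrected. AKR1B10 too was chosen after its values were seen, and whether NRF2 has a part in the AKR1C levels was not tested.

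The androgen receptor and 9 of its targets gave 7 higher and 1 lower among 9 tested, with a median log2 fold change of 1.33, beside the same 36.2% and 36.4% of all genes. KLK3, the gene of prostate-specific antigen, averaged 1250 ± 82.1 CPM in EnzaR and 43.4 ± 2.86 CPM in LNCaP cells (SD, n = 4 each, log2 fold change 4.82, edgeR adjusted p = 6.01e-16). KLK2, FKBP5 and the channel gene TRPM8 had log2 fold changes of 3.74, 1.65 and 5.14 (edgeR adjusted p = 4.01e-14, 1.73e-10 and 4.42e-12). NDRG1 had -2.45 (edgeR adjusted p = 3.03e-10). Markers of other cell types that the rule also named were VIM (-8.14), ENO2 (-2.39) and COL1A1 (-2.28), all lower in EnzaR cells (edgeR adjusted p = 1.44e-11, 1.32e-11 and 1.57e-12). The neuroendocrine markers were not uniform. SYP, the other one tested, was higher in EnzaR cells, at 3.34 ± 1.17 against 1.84 ± 0.295 CPM (log2 fold change 0.818, edgeR adjusted p = 0.0082). SYP is outside the naming rule for this comparison.

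Depletion of YAP1 in EnzaR cells gave small differences in the enzymes. Of the 9 tested, AKR1C2 and HSD17B10 were called higher, by 1.28-fold and 1.33-fold, 0 were called lower and 7 did not pass the threshold. DESeq2 also called 2 higher and 0 lower, and at an unadjusted p under 0.05 edgeR had 2 higher and 1 lower. Over all 14948 genes tested 12.1% were called, 5.83% higher and 6.22% lower, and the median log2 fold change was 0.117 over the 9 enzymes and -0.0254 over all genes. AKR1C2 rose to 79.2 ± 2.37 CPM in siYAP1 libraries, against 60.8 ± 1.35 CPM in siNC libraries (SD, n = 2 each), with groups apart (log2 fold change 0.35, SE 0.103, edgeR adjusted p = 0.0312). HSD17B10 rose to 335 ± 45.9 CPM in siYAP1 libraries, against 247 ± 16.8 CPM in siNC libraries (SD, n = 2 each, log2 fold change 0.41, SE 0.104, edgeR adjusted p = 0.0188), again with groups apart.

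Both calls depended on the libraries and the model. With any single library removed, AKR1C2 kept a log2 fold change of 0.32 to 0.40 but lost its call. The edgeR adjusted p was 0.161 and 0.0861 when siNC replicate 1 or 2 was removed, and 0.259 and 0.0566 when siYAP1 replicate 1 or 2 was removed. HSD17B10 lost its call when siNC replicate 1 (0.335, edgeR adjusted p = 0.156) or siYAP1 replicate 1 (0.25, edgeR adjusted p = 0.276) was removed. It was called, at 0.48 and 0.55, when replicate 2 of siNC or of siYAP1 was removed. A correction for GC content and length moved the enzymes apart: AKR1C2 was then at 0.54 (edgeR adjusted p = 0.00302) and HSD17B10 at 0.14 (edgeR adjusted p = 0.32). Scaled by library totals alone, where the median of all genes moved to -0.129, AKR1C2 was at 0.25 and HSD17B10 at 0.30, and neither was called (edgeR adjusted p = 0.12 and 0.0513). The 3 AKR1C genes added together reached 0.26 on the log2 scale, short of the threshold (SE 0.0977, edgeR adjusted p = 0.0807).

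Within the AKR1C group, the share of AKR1C2 was 72.1 ± 0.0918% in siYAP1 and 67.7 ± 0.131% in siNC libraries (SD, n = 2 each, with exact binomial 95% limits of the single libraries spanning 69.8% to 74.2% in siYAP1 and 65.3% to 70.1% in siNC). With 2 libraries per group no exact permutation test of this difference can pass 0.05, since the smallest two-sided p is 0.333. AKR1C1 and AKR1C3 had log2 fold changes of 0.12 and -0.063 (SE 0.145 and 0.17, edgeR adjusted p = 0.631 and 0.841). The AKR1C3 values of the groups overlapped.

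The other enzymes gave no call in the knockdown. SRD5A1 and SRD5A3 had log2 fold changes of 0.14 and 0.21 (SE 0.124 and 0.113, edgeR adjusted p = 0.494 and 0.227). HSD17B6 had the largest negative value, -0.71 (SE 0.33, edgeR adjusted p = 0.161), with 28 and 27 counts in siYAP1 and 60 and 41 counts in siNC libraries, so that its groups were apart but its error was wide. HSD17B11 had -0.44 (SE 0.232, edgeR adjusted p = 0.21) and STS -0.17 (SE 0.223, edgeR adjusted p = 0.656).

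**Figure D4:**
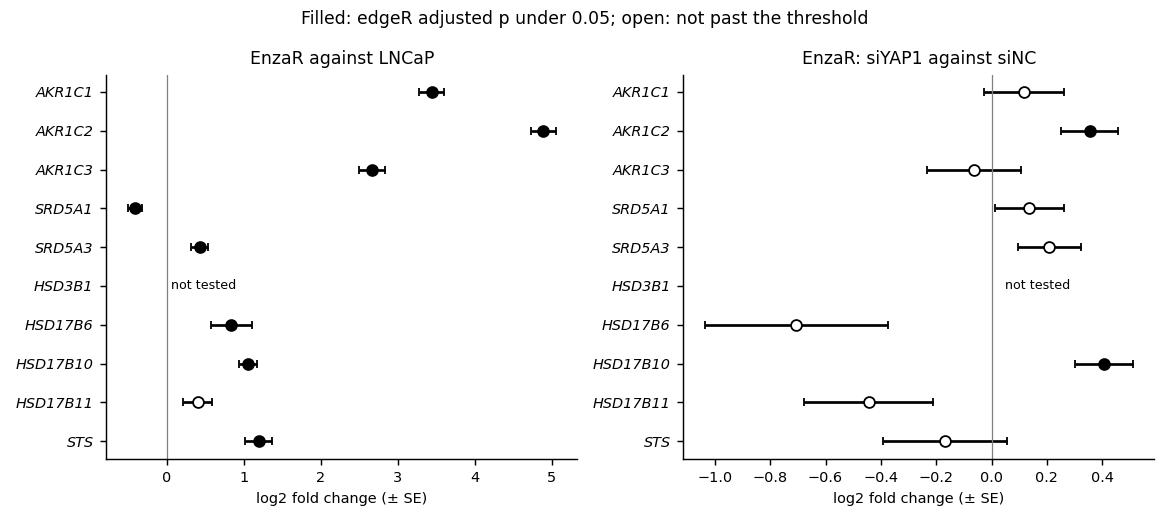
Log2 fold change with its SE for each enzyme, left for EnzaR against LNCaP cells and right for siYAP1 against siNC, on axes of different range; filled points passed an edgeR adjusted p of 0.05. The AKR1C genes reach 2.66 to 4.89 between lines, while no enzyme exceeds 0.71 in size in the knockdown.

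Around the enzymes, 20 of the further steroid genes could be tested in the knockdown, and 2 were higher and 1 lower, beside 5.83% and 6.22% of all genes, a share too close to that background to be read as a result about these lists. HSD17B8, a mitochondrial dehydrogenase that can oxidise estradiol, rose to 74.2 ± 7.16 CPM in siYAP1 libraries, against 53.3 ± 1.44 CPM in siNC libraries (SD, n = 2 each, log2 fold change 0.45, edgeR adjusted p = 0.0149). TSPO, a protein of the outer mitochondrial membrane, rose to 285 ± 40.5 CPM in siYAP1 libraries, against 210 ± 12.3 CPM in siNC libraries (log2 fold change 0.41, edgeR adjusted p = 0.018). SUMF1 fell to 24.1 ± 0.25 CPM in siYAP1 libraries, against 38.5 ± 1.54 CPM in siNC libraries (log2 fold change -0.71, edgeR adjusted p = 0.00219). These calls too depended on single libraries: without EnzaR_siYAP1 replicate 1, HSD17B8, TSPO and SUMF1 were at 0.34, 0.25 and -0.70 with edgeR adjusted p = 0.25, 0.277 and 0.0972. HSD17B8 and TSPO were also not called without EnzaR_siNC replicate 1 (edgeR adjusted p = 0.0599 and 0.132), nor with GC and length corrected (0.16 and 0.099, edgeR adjusted p = 0.358 and 0.517), while SUMF1 was called there.

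The counts on the remaining lists stand beside the same 5.83% higher and 6.22% lower over all genes. Among 6 tested genes of the glucocorticoid and NADPH list, IDH1, which makes cytosolic NADPH, fell (log2 fold change -0.36, edgeR adjusted p = 0.0213) and PGD, of the pentose phosphate pathway, rose (0.30, edgeR adjusted p = 0.0447). Of 9 tested NRF2 targets edgeR and DESeq2 each called 0, with 1 higher and 1 lower at an unadjusted edgeR p under 0.05 and a median log2 fold change of -0.206. Of 9 tested genes of the androgen receptor list 2 were lower, TRPM8 (-0.66, edgeR adjusted p = 0.00383) and NDRG1 (-0.48, edgeR adjusted p = 0.00751). SYP, a neuroendocrine marker, rose (0.86, edgeR adjusted p = 0.0433), at 4.35 ± 0.218 CPM in siYAP1 and 2.34 ± 0.139 CPM in siNC libraries (SD, n = 2 each). The neuroendocrine list did not rise with it. ENO2, outside the naming rule here, was not called and its groups overlapped (0.0975, edgeR adjusted p = 0.65), and CHGA and INSM1 had too few counts to be tested. Without EnzaR_siYAP1 replicate 1 none of IDH1, PGD, TRPM8, NDRG1 and SYP was called (edgeR adjusted p = 0.185, 0.266, 0.165, 0.135 and 0.261). SYP lost its call whichever library was left out. IDH1 was called when EnzaR_siNC replicate 2 was left out (but with no other library removed), and PGD when EnzaR_siYAP1 replicate 2 was. With GC and length corrected, IDH1, PGD and SYP were not called (edgeR adjusted p = 0.37, 0.13 and 0.113).

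In LNCaP cells given vesicles from EnzaR cells, AKR1C1, AKR1C2, AKR1C3, HSD17B10 and STS stayed below every EnzaR library, while HSD17B11 in EV-siYAP1 (4.57 CPM) lay inside the EnzaR range. That range begins at 3.78 CPM, beside 3.75 CPM in the LNCaP control. HSD17B11 had 85 counts in EV-siYAP1 and 69 in EV-siNC, a log2 ratio of 0.335 with limits on both sides of 0 (-0.141 to 0.814). There is 1 library per group, so no test was made and differences have no replicate check. The 95% limits given come from exact binomial intervals and cover counting alone. The comparison of EV-siNC with control asked what vesicles of resistant cells do to sensitive cells. Of the 3 enzymes with a mean of at least 5 CPM, SRD5A1, SRD5A3 and HSD17B10, 0 differed by 1.5-fold, beside 3.95% of 10589 genes. HSD17B10 was at 138 CPM in EV-siNC and 153 CPM in control (log2 ratio -0.15, limits -0.23 to -0.072). SRD5A1 and SRD5A3 had log2 ratios of 0.057 and -0.11, with limits on both sides of 0. AKR1C2 had 39 counts in EV-siNC and 37 in control, a log2 ratio of -0.014 with limits of -0.70 to 0.68, and AKR1C3 had 28 and 27 counts. AKR1C1 had 28 and 38 counts (log2 ratio -0.53, limits -1.29 to 0.21).

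The comparisons of EV-siYAP1 and EV-siCII with EV-siNC, which share the EV-siNC library, asked whether the effect of the vesicles depends on these factors in the donor cells. Beyond 1.5-fold lay 0 of the 3 enzymes in both, beside 1.21% of 10708 and 0.936% of 10685 genes. For scale, 1.35% of genes differed so between the siYAP1 replicates of EnzaR cells and 1.41% between the siNC replicates. AKR1C2, below the 5 CPM floor, had 59 counts in EV-siYAP1 and 39 in EV-siNC (log2 ratio 0.63, limits 0.023 to 1.25), and its value in EV-siYAP1 stood apart from the 3 other LNCaP libraries. AKR1C1 and AKR1C3 had log2 ratios of 0.23 and 0.47 there, with limits on both sides of 0.

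SRD5A3 was at 32.1 CPM in EV-siYAP1 and 40.1 CPM in EV-siNC (log2 ratio -0.32, limits -0.48 to -0.16), and HSD17B10 at 123 and 138 CPM (-0.17, limits -0.25 to -0.083). Those limits lie below 0 but do not cover the spread between cultures. In EV-siCII against EV-siNC, SRD5A3 had a log2 ratio of -0.16 (limits -0.31 to -0.0049), and the limits of the other 8 enzymes with counts in both libraries held 0. AKR1C2 had 36 and 39 counts in these libraries.

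**Figure D5:**
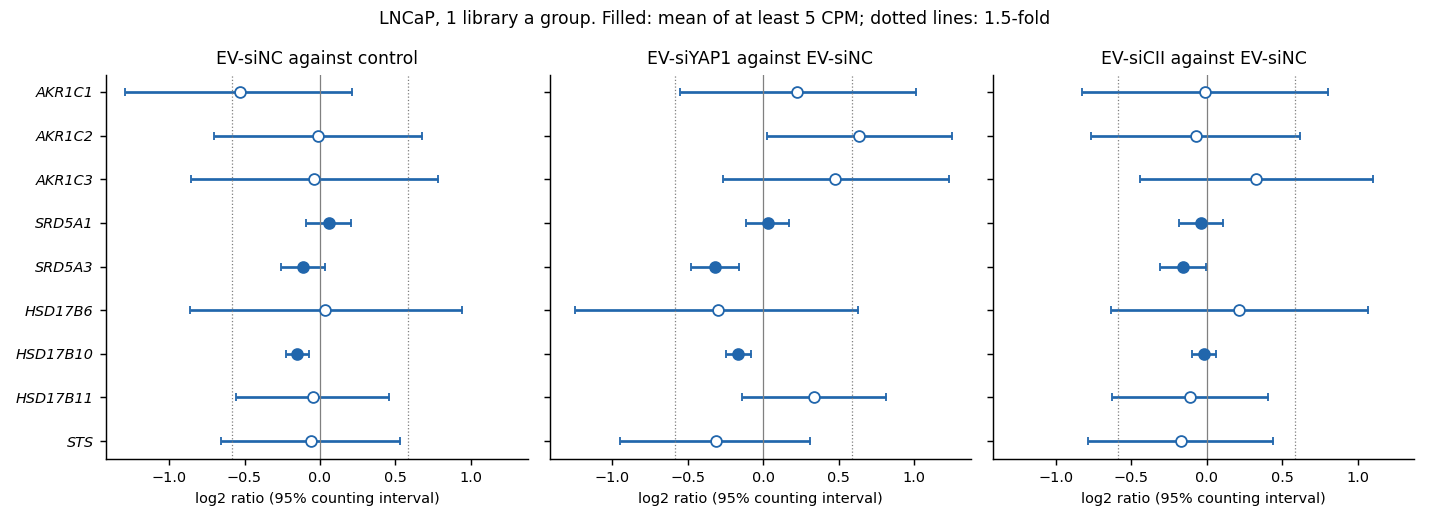
Log2 ratio of 9 enzymes, without HSD3B1, in 3 comparisons of single LNCaP libraries, with 95% counting intervals; filled points have a mean of at least 5 CPM, and dotted lines mark 1.5-fold. The filled points lie between -0.32 and 0.057, and the open points have the wider intervals.

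By the same measure, members of the other lists past 1.5-fold were SLC7A11, a cystine importer and NRF2 target, at 19.9 CPM in EV-siNC and 11.1 CPM in control (log2 ratio 0.835, limits 0.58 to 1.09), and 2 genes in EV-siCII against EV-siNC. With GC and length corrected, SLC7A11 was at 0.41, below 1.5-fold. The genes in EV-siCII were NDRG1, at 295 CPM in EV-siCII and 452 CPM in EV-siNC, and ENO2, at 122 and 185 CPM. No gene of the 4 steroid lists with a mean of at least 5 CPM was past 1.5-fold in any of the 3 comparisons. Below that floor, CYP3A5 had 73 counts in EV-siYAP1 and 48 in EV-siNC (ratio 1.56, log2 limits 0.094 to 1.20), and is named after its values were seen.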

How the data were processed

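The authors' deposited table holds raw read counts and FPKM per Ensembl gene for 8 libraries of total RNA. Tools listed in the submitters' processing notes are HTSeq 0.6.1, HISAT2 2.0.1, DESeq2 and cutadapt 1.9.1, and the build is hg19 (GRCh37). What each tool did, the strand setting and the annotation release are not stated there. The deposited exonic lengths are in bases, and the deposited FPKM equalled count per exonic kilobase and library total within 0.0051. Symbols were matched by identifier for 51996 of 57905 genes. SRD5A2 and DHRS11 were not matched.

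Counts entered edgeR's robust quasi-likelihood test (version 4.0.16, R 4.3.3) after filterByExpr and TMM scaling, and p-values adjusted by Benjamini-Hochberg were called under 0.05. SEs are the absolute log2 fold change divided by the square root of the test's F. siYAP1 was set against siNC (2 libraries each), and 4 EnzaR against 4 LNCaP libraries, treatments entering the spread. Single LNCaP libraries were compared as ratios of TMM-scaled CPM, calling 1.5-fold above a mean of 5 CPM. Printed CPM are TMM-scaled over 8 libraries. The scripts were tested on simulated data. Alternatives were other scalings and filters, DESeq2 1.42.0, a GC and length surface per library (mgcv 1.9.3, GC from GENCODE release 29, known for 97.3% of genes tested), a replicate block, other choices of libraries and each library left out. The members and gene lists were chosen with earlier results of these data known. Beyond members, YAP1 and NR2F2, genes were named where called on a list (up to 8 in the knockdown, up to 12 of at least 2-fold between lines, up to 5 past 1.5-fold between single libraries, largest first), and exceptions are marked. NR2F2 was at 43.8 to 53.4 CPM in all libraries. No 2 libraries agreed within sampling noise (lowest chi-square per degree of freedom 5.03).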

Additional observations from a re-analysis of the deposited data

Results flagged for a closer look

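In 2 of 20 sets of 4 libraries (10 enzymes in each line), 1 library stood apart from the other 3 by Dixon's ratio, the gap to the nearest library divided by the range, above its 95% critical value. Chance alone gives about 1 in 20. For AKR1C2 in LNCaP cells, EV-siYAP1 was at 3.17 CPM and the others at 1.95 to 2.07 CPM (ratio 0.902). For AKR1C3 in EnzaR cells, siYAP1 replicate 1 was at 10.69 CPM and the others at 11.15 to 11.25 CPM (ratio 0.832). The 4 libraries of a line had different treatments.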

How the results depend on the processing

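In EnzaR against LNCaP cells 7 to 9 enzymes were called under the alternatives run, against 8, and the AKR1C genes, HSD17B10, STS and SRD5A1 kept direction and call in all of them. HSD17B11 reversed to -0.641 after the GC and length correction, and the cause was not tested. In siYAP1 against siNC, 2 enzymes were called with all libraries, 0 with library totals, 1 after the GC and length correction, 1 with the replicate block (AKR1C2 was lost, edgeR adjusted p = 0.0721), 1 with the replicate block and GC correction, 1 with all 8 libraries in the fit and 0 to 1 without single replicates. The numbers 872 higher and 930 lower became 293 and 1416 with library totals (17.1% higher, against 48.4%), 363 and 240 after the GC and length correction (60.2%), 564 and 846 with the replicate block, 344 and 302 with both, and 675 and 473 with all 8 libraries (58.8%). DESeq2 gave 916 and 467 (66.2%), and leaving out single replicates 15 to 940 higher and 11 to 829 lower, the fewest without EnzaR_siYAP1 replicate 1. Deviations of replicates with the same number had only a weak negative correlation (r = -0.152 across 11654 genes). A crossed block, chosen after seeing the data, gave 1518 higher and 1302 lower. A lone library of a group was assumed to vary like the other group. The cause of these shifts was not tested. With GC and length corrected, without and with the replicate block, AKR1C3 reversed to 0.13 and 0.13, STS to 0.104 and 0.102, and NR2F2 to 0.0441 and 0.043. Without single replicates STS lay between -0.341 and 0.0278 and NR2F2 between -0.101 and 0.03. None of these was called. For EV-siNC against control, 418 genes past 1.5-fold became 1368 at a floor of 1 CPM, 17 at 2-fold and 165 after the GC and length correction. For EV-siYAP1 against EV-siNC, 130 became 894 and 8, and 0 enzymes became 1 (AKR1C2) at 1 CPM. For EV-siCII, 100 became 824 and 10. Position 3 of AKR1C2 in EnzaR and 7.5 (tied with AKR1C3) in LNCaP cells became 2 and 5 per coding length. In EnzaR cells position 7 of AKR1C1 became 5 and position 5 of AKR1C3 became 6.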
